A study of Mus musculus with 4 samples.

Results

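The 8 genes described here, Smad6, Smad7, Id1, Id2, Id3, Id4, Msx1 and Msx2, are textbook early targets and feedback genes of BMP signalling. They were taken as a fixed list, and their peaks were chosen by position. A peak belonged to a gene when it lay on the gene or within 1 kb of it, or when its summit had that gene's end as the nearest end of a protein-coding gene within 100 kb. All 8 genes were found among 21627 protein-coding genes. They took 59 of 49394 peaks in the Gata2WT list and 59 of 44139 peaks in the Gata2cKO list. The peak lists were from ATAC-seq, in which the Tn5 transposase cuts and tags open DNA, on C57BL/6J mouse germ cells at E14.5 (embryonic day). SSEA1 beads had been used to enrich the cells from ovaries of female fetuses, about 10000 cells per library, with 2 libraries per genotype. Gata2cKO embryos carried floxed Gata2 and a Prdm1-Cre transgene, whose promoter is active in the germ line from its founding, and Gata2WT embryos came from the same cross of Gata2flox/+ Prdm1-Cre males with Gata2flox/flox females. In that cross every embryo receives a floxed allele from its mother. The labels do not say whether Gata2WT embryos had another floxed allele or the transgene, nor how many embryos went into a library.

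BMP ligands bind paired serine/threonine kinase receptors, which phosphorylate SMAD1, SMAD5 and SMAD9. These enter the nucleus with SMAD4 and switch on a small set of direct targets. SMAD6 and SMAD7 are inhibitory SMADs that block the receptors and so close a negative feedback loop. ID1 to ID4 are helix-loop-helix proteins without a DNA-binding region that hold E proteins away from DNA, and MSX1 and MSX2 are homeobox repressors. In the fetal ovary, BMP from somatic cells is known as a signal for the oogenic program and the entry into meiosis, and Msx1 and Msx2 have been tied to Stra8 in this tissue.

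The authors' processed data hold 1 combined peak list per genotype, so no value below has a replicate error and no test between genotypes was made. A peak is called shared when it overlaps a peak of the other list by at least 1 bp, and otherwise WT-only or cKO-only. Absence from a list means only that the site did not reach the calling threshold, and such a site may still have been open. Strength is given as the authors' −log10 q of the summit within its own list. The number of fragments piled up at the summit and the local background were solved from the authors' fold enrichment and −log10 p. The lowest local background, a measure of depth, was 2.19 fragments for Gata2WT and 2.01 for Gata2cKO, and the median summit held 19 fragments in each. Among markers fixed for cell types, 6 of 8 germ cell genes had gene-end peaks in each list, while 1 had one for Gata2WT only and 1 had none. The same held in both lists for 6 of 8 pregranulosa and coelomic epithelium genes and 5 of 8 endothelial genes. It also held in both for 2 of 4 interstitial genes, 2 of 4 erythroid genes and 1 of 4 macrophage genes. Of the interstitial genes, Nr2f2 had one for Gata2WT only. Genome-wide, the share of coding genes marked this way by both lists was 62.8%, so cell content is not read from these counts. Over all peaks 28.5% were WT-only and 19.7% cKO-only. WT-only and cKO-only peaks were 13 of 44 and 9 of 40 at germ cell genes, 14 of 44 and 2 of 32 at pregranulosa and coelomic epithelium genes, and 11 of 28 and 2 of 20 at interstitial genes. They were 7 of 27 and 3 of 24 at endothelial genes, 0 of 1 and 1 of 2 at macrophage genes, and 0 of 2 and 1 of 4 at erythroid genes. Their part in the counts below was not tested.

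Promoter sequence is shown for 4 of the 6 genes searched because both lists placed a peak over it. These 4 also hold every match to a SMAD palindrome, to GGCGCC or to a GATA motif found in those 6. The windows came from RefSeq's promoter table (GRCm38.p6), with 250 bases before and 50 after the start site. Id1 has no entry there, and Smad7 was left out of the search, so nothing is said of their promoter sequence. Capitals mark GGCGCC, which BMP SMADs bind, its variant GGAGCC, the palindrome GTCTAGAC, and GATA motifs, on either strand. Each sequence runs 5′ to 3′ along the gene.
Smad6, chr9:64022010-64022309, minus strand: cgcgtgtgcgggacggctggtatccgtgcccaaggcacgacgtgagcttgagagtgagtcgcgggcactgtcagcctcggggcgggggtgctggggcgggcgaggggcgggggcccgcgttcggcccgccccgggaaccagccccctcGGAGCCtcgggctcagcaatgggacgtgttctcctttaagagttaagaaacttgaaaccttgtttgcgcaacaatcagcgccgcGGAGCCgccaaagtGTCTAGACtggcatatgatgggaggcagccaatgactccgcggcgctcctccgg
Id2, chr12:25096043-25096342, minus strand: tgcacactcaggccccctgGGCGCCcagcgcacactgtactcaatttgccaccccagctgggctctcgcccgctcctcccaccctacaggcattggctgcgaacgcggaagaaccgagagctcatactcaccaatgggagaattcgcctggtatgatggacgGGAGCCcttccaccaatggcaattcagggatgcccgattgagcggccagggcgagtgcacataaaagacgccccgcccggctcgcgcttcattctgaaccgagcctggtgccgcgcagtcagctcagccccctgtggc
Id3, chr4:136143572-136143871, plus strand: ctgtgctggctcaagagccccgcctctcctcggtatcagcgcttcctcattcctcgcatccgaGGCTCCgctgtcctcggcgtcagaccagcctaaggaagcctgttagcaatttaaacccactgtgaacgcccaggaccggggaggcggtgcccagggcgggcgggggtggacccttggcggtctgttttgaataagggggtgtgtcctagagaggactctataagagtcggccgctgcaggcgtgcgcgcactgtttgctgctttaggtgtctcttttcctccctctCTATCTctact
Id4, chr13:48260866-48261165, plus strand: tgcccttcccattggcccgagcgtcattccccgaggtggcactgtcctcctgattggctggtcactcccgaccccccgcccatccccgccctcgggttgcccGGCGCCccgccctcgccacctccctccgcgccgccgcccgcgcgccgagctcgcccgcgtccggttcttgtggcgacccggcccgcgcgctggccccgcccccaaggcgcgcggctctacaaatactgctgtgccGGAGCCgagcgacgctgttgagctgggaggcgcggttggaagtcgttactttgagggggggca

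The 6 windows were GC-rich, from 60% in Id3 to 73.3% in Id4, against a median of 56.7% over 21044 coding promoters. GGAGCC was found in 6 of 6, against 35.2% of the coding promoters and 50.9% of the 6903 within the same range of GC. GGCGCC was found in Id2 and Id4 alone, against 15.5% and 27.0%. The palindrome GTCTAGAC was found in Smad6 alone, starting 4 bases before the start site. It is rare, in 70 of 32851 promoters of the table (0.213%) and in 17 of the 6903 coding promoters of like GC (0.246%). A shorter SMAD motif, CAGAC, was found in Id3 alone, at 2 places, against 48.3% of coding promoters and 46.7% of those of like GC. Of the GATA motifs searched, AGATAG was found once, in Id3, on the opposite strand, its first base 39 bases after the start site (7.85% of coding promoters, 3.95% of those of like GC). AGATAA, the second GATA motif, was found in none of the 6 (9.68% and 2.85%). Neither was the third, TGATAA (7.51% and 1.94%), nor the fourth, TGATAG (6.43% and 2.65%). At least 1 of the 4 GATA motifs was in 1 of the 6 windows, against 25.8% of coding promoters and 10.8% of those of like GC. Of the E-box motifs, which E proteins bind, CAGCTG was in Id2 (15.7% of coding promoters, 15.7% at like GC) and CACGTG in none (7.91% and 11.4%). All 10 motifs were searched on both strands, and CAGAC shares its last 4 letters with the end of GTCTAGAC. A match is a run of letters, not a bound site.

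All 8 genes had a peak at a gene end in both lists, where 62.8% of coding genes did. The 11 such peaks of Gata2WT and the 12 of Gata2cKO were all shared. Few gene-end peaks were in 1 list alone anywhere, 7.17% over all of Gata2WT and 4.51% over all of Gata2cKO. The inhibitory SMADs had the strongest ones. At Smad6 (chromosome 9, 63953076 to 64022085, minus strand) the peak over the start site was 64022028 to 64023387 in Gata2WT, with a −log10 q of 40.1 and 110 fragments, and 64022002 to 64023355 in Gata2cKO, with 43.0 and 105 fragments. Relative to the start site of the promoter table, 64022059, its summit lay at −770 bp in Gata2WT and −764 bp in Gata2cKO, with the palindrome near the gene-side edge of the peak. At Smad7 (chromosome 18, 75367365 to 75395935) the gene-end peak was 75366348 to 75367851 in Gata2WT, with a −log10 q of 60.5 and 128 fragments. In Gata2cKO it was 75366399 to 75367867, with 41.4 and 91 fragments. The values of the lists were not scaled to each other, so they stand side by side and no change is read from them.

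The members' gene-end peaks stood on a raised local background, whose source was not tested. Their median local background was 16.6 fragments in Gata2WT and 14.1 in Gata2cKO, against 6.55 and 5.54 over all gene-end peaks. Among these peaks the highest backgrounds were at Id3 and Id2. Id2 (chromosome 12, 25093799 to 25096092, minus strand) had its start-site peak at 25095978 to 25096680 in Gata2WT, where 110 fragments stood on a local background of 28.5 (−log10 q of 28.2). The Gata2cKO peak there had 77 fragments on 22.8 (16.2). Id3 (chromosome 4, 136143822 to 136145392, plus strand) had 102 fragments on 33.4 in Gata2WT (18.7) and 92 on 26.8 in Gata2cKO (20.0). The median local background over all Id3 peaks was 24.3 fragments in Gata2WT and 24.1 in Gata2cKO, and over Id2 peaks 19.6 and 15.4. Over all peaks of the lists the median was 3.25 and 3.19. Single Id3 peaks had backgrounds from 2.45 to 34.1 in Gata2WT and from 3.35 to 27.4 in Gata2cKO. Id4 (chromosome 13, 48261116 to 48266028, plus strand) lay on a lower background. It had 60 fragments on 9.75 in Gata2WT (24.8) and 44 on 7.13 in Gata2cKO (17.99), at summits 438 bp apart. Fold enrichment was therefore moderate at the members' gene ends, with a median of 4.03 in Gata2WT and 4.28 in Gata2cKO against 8.12 and 7.98 for all gene-end peaks. Their summits had a median of 71 and 60 fragments against 62 and 52.

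Id1 was the member whose peaks were all shared. The gene (chromosome 2, 152736251 to 152737410) had 5 peaks in Gata2WT and 6 in Gata2cKO within 18.3 kb. The extra one came from a split: 1 Gata2WT peak with 3 summits ran from 152734637 to 152736630, and over the same ground the Gata2cKO list had 2 peaks, 152734637 to 152735539 and 152735880 to 152736510. The Gata2WT peak had a −log10 q of 19.7 and the Gata2cKO peaks 22.0 and 16.4. The other 4 sites were at 12.2 and 5.87 kb below the gene and 2.17 and 4.62 kb above it, measured from the Gata2WT summits. Their −log10 q was 8.13, 7.58, 6.56 and 2.62 in Gata2WT and 14.3, 9.87, 10.4 and 4.53 in Gata2cKO. When a shared peak had to have summits within 250 bp, 1 of the Gata2cKO peaks counted as cKO-only.

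The strongest peaks of the homeobox genes were shared. Msx1 (chromosome 5, 37820491 to 37824585, minus strand) had its start-site peak at 37824103 to 37824898 in Gata2WT (−log10 q of 19.2, 65 fragments) and 37824192 to 37824898 in Gata2cKO (23.5, 58 fragments). A peak 2.34 kb upstream of Msx1 was shared too (11.8 and 17.0, Gata2WT first), as was one at 71.2 kb (15.8 and 20.6). Msx2 (chromosome 13, 53466881 to 53472780, minus strand) had a start-site peak with a −log10 q of 34.05 and 83 fragments in Gata2WT, and 16.6 and 53 fragments in Gata2cKO. The peak 3.41 kb upstream of Msx2 had 37.5 in Gata2WT and 37.3 in Gata2cKO. Downstream of the gene, at 5.29 kb, a shared site had 7.42 with 27 fragments in Gata2WT and 29.8 with 54 fragments in Gata2cKO on nearly the same local background, 6.27 and 6.02.

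**Figure D1:**
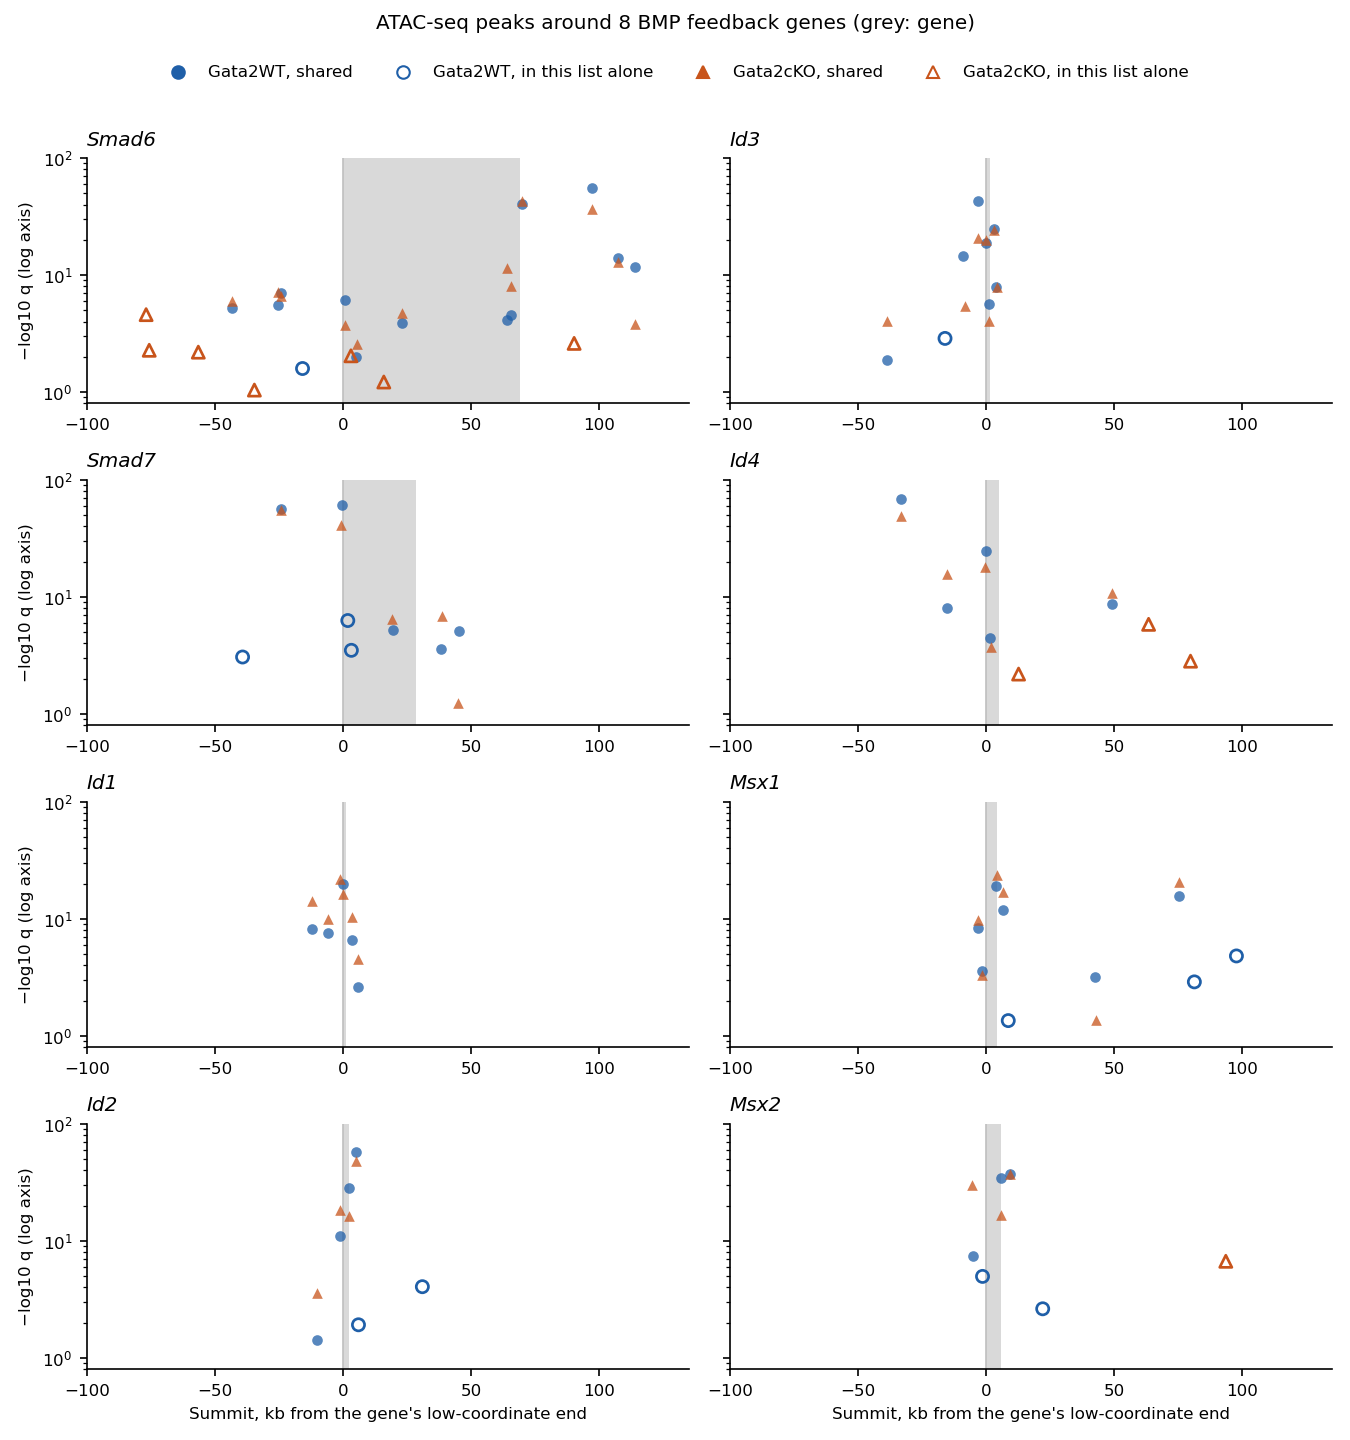
Peaks of the 8 genes by distance of the summit from the gene's low-coordinate end (x axis, kb) and −log10 q (y axis, log scale), with circles for the Gata2WT list, triangles for the Gata2cKO list, filled marks for shared peaks and open marks for peaks in 1 list alone. Open marks lie between 1.04 and 6.68, Id1 has none, and 7 of the 11 open triangles are at Smad6.

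Smad6 had the most peaks and the most cKO-only peaks of the 8 genes. It took 13 peaks in Gata2WT, 1 of them WT-only, and 19 in Gata2cKO, of which 7 had no Gata2WT partner. Smad6 was named in the list with this count already known, so it is a description. All 7 were weak, with a −log10 q from 1.04 to 4.58 and 9 to 16 fragments. Of the 7, 6 had at most 2 fragments more than p = 0.001 required on their local background, and 2 had exactly that number. The strongest, 63876014 to 63876317, had 14 fragments on a background of 2.63 and lay 76.9 kb past the 3′ end of the gene. Beside it, at 75.7 kb, stood 63877259 to 63877637 (2.27, 11 fragments). Another pair past the 3′ end lay at 56.5 kb (2.19, 9 fragments) and 34.6 kb (1.04, 9 fragments). Inside the gene were 63956040 to 63956341 (2.04, 16 fragments) and 63968824 to 63969122 (1.22, 12 fragments), and upstream, at 21.2 kb, 64043165 to 64043452 (2.60, 12 fragments). None lay within 1 kb of a Gata2WT peak, the nearest gap being 1.85 kb. The 1 WT-only peak of Smad6, 63937163 to 63937541, was as weak (1.59, 9 fragments).

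The excess at Smad6 was uncommon among genes and rested on weak, distant peaks. Of 17075 coding genes with a peak, 28 (0.164%) had 7 or more cKO-only peaks and 5 (0.0293%) had an excess over WT-only peaks of 6 or more. These limits are the values of Smad6 itself, which is counted in the 28 and in the 5. Genes rich in peaks have more chances: 43 genes had at least as many Gata2cKO peaks as Smad6, with medians of 6 WT-only and 5 cKO-only peaks, and 2 of them had that excess. The excess of 6 became 7 with lists of equal length, 3 under a distance limit of 50 kb, 1 under one of 20 kb, 2 when noncoding genes could also claim peaks. It was 0 once a −log10 q of 5 or more was required, of the counted peaks or in both lists. Nearest to Smad6 in counts of shared, WT-only and cKO-only peaks were Apbb2 (10, 1 and 7), Dgkg (12, 2 and 6) and Plcg2 (11, 2 and 6, 1 of 2 genes at that distance).

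The strong sites around Smad6 were in both lists. The tallest distal peak, 64049524 to 64050476 in Gata2WT, 28.0 kb upstream, had a −log10 q of 55.0 with 81 fragments, and 36.9 with 65 fragments in Gata2cKO. Neighbouring sites at 38.3 and 44.9 kb upstream had 13.9 and 11.7 in Gata2WT and 13.00 and 3.82 in Gata2cKO. In the first 5 kb of the gene, 64016921 to 64017211 had 4.11 with 34 fragments in Gata2WT and 11.6 with 45 fragments in Gata2cKO, and 64018202 to 64018937 had 4.57 with 50 and 8.13 with 53. Past the 3′ end, the 3 shared sites at 24.3 to 43.2 kb had 7.02, 5.49 and 5.18 in Gata2WT and 6.64, 7.10 and 6.00 in Gata2cKO, from the nearest to the farthest.

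Smad7 leaned the other way, with 8 peaks in Gata2WT, 3 of them WT-only, and 5 in Gata2cKO, all shared. Of the WT-only peaks, 2 lay inside the gene close to its low-coordinate end, on a high local background. The stronger, 75368958 to 75369415, had 48 fragments on a background of 18.4 where 33 were needed (−log10 q of 6.28), and was the strongest WT-only peak of all 8 genes. The next, 75370441 to 75370695, had 41 fragments on 18.6 (3.50). The third, 39.2 kb outside the gene, had 13 fragments (3.06). The strongest distal site of Smad7, 75342191 to 75343503 at 24.3 kb, was shared and had close values in the lists, 56.5 with 98 fragments in Gata2WT and 54.9 with 95 fragments in Gata2cKO. Its WT-only count of 3 held with lists of equal length and was 1 once a −log10 q of 5 or more was required of the counted peak. With that limit in both lists it was 2, beside 1 cKO-only peak. For Smad7, 22 genes had the same counts of shared, WT-only and cKO-only peaks (5, 3 and 0), of which Adra1b, B4galt6 and Dusp5 come first by name.

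Among the Id genes, Id4 alone had cKO-only peaks. Its 5 Gata2WT peaks were all shared, and its 8 Gata2cKO peaks included 3 cKO-only ones. These lay past the 3′ end, at 7.76 kb (48273669 to 48273991, −log10 q of 2.19, 9 fragments), 58.5 kb (48324365 to 48324715, 5.83, 14 fragments) and 74.9 kb (48340755 to 48341007, 2.82, 10 fragments). The peaks of 9 and 10 fragments needed 8 to be called. An excess of 3 or more was found in 147 of 17075 coding genes with a peak (0.861%), a share not matched for number of peaks. The excess at Id4 became 1 with peaks within 50 kb and 0 when noncoding genes could claim peaks. It was also 1 once a −log10 q of 5 or more was required, of the counted peaks or in both lists. The nearest coding gene on that side is Zfp169, 215 kb away. Upstream of Id4, the strongest peak of the whole set in the Gata2WT list, 48227755 to 48228425 at 33.1 kb, was shared, with a −log10 q of 68.0 and 93 fragments in Gata2WT and 49.1 and 73 fragments in Gata2cKO. A second shared upstream site, at 15.3 kb, had 8.07 in Gata2WT and 15.6 in Gata2cKO.

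Id2 had 2 WT-only peaks and Id3 had 1, and neither had a cKO-only peak. At Id2, 25099703 to 25100159 lay 0.273 kb from the nearest Gata2cKO peak, the smallest gap of any single-list peak in the set, with 43 fragments on a background of 23.7 (−log10 q of 1.91). That neighbour, 25098508 to 25099430 in Gata2cKO, was the shared peak 2.72 kb upstream of Id2, which held 141 fragments in Gata2WT (57.4) and 114 in Gata2cKO (48.5). The other WT-only peak of Id2 lay 28.7 kb upstream (4.05, 13 fragments). The WT-only peak of Id3 was 16.0 kb upstream (2.87, 11 fragments). Closer to Id3, a site 3.14 kb upstream had 112 fragments in Gata2WT (42.7) and 70 in Gata2cKO (20.8). A shared site 8.87 kb upstream had 33 fragments in Gata2WT (14.6) and 24 in Gata2cKO (5.46). Its Gata2cKO summit was at 8.25 kb, 624 bp from the Gata2WT one, so these values are from different positions. Past the 3′ end of Id3, at 1.48 kb, the values were 104 fragments (24.8) and 94 (24.2).

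The homeobox genes had 5 of the 12 WT-only peaks, 3 at Msx1 and 2 at Msx2, and Msx2 had 1 cKO-only peak. At Msx1 the strongest of these lay 93.6 kb upstream (37917982 to 37918568, −log10 q of 4.82, 13 fragments), near the 100 kb limit, and the others at 77.2 kb (2.89) and 4.55 kb (1.35). The cKO-only peak of Msx2, 87.7 kb upstream (53560205 to 53560551), was the strongest cKO-only peak of the 8 genes, with a −log10 q of 6.68 and 16 fragments on 2.40. The WT-only peaks of Msx2 were at 1.40 kb past the 3′ end (4.96, 23 fragments) and 16.2 kb upstream (2.62, 10 fragments). Beyond the limit, the closest peaks whose nearest coding gene was a member stood at 113 kb from Msx2 in Gata2WT (WT-only, 2.62) and at 122 kb from Id2 in Gata2cKO (cKO-only, 2.88).

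**Figure D2:**
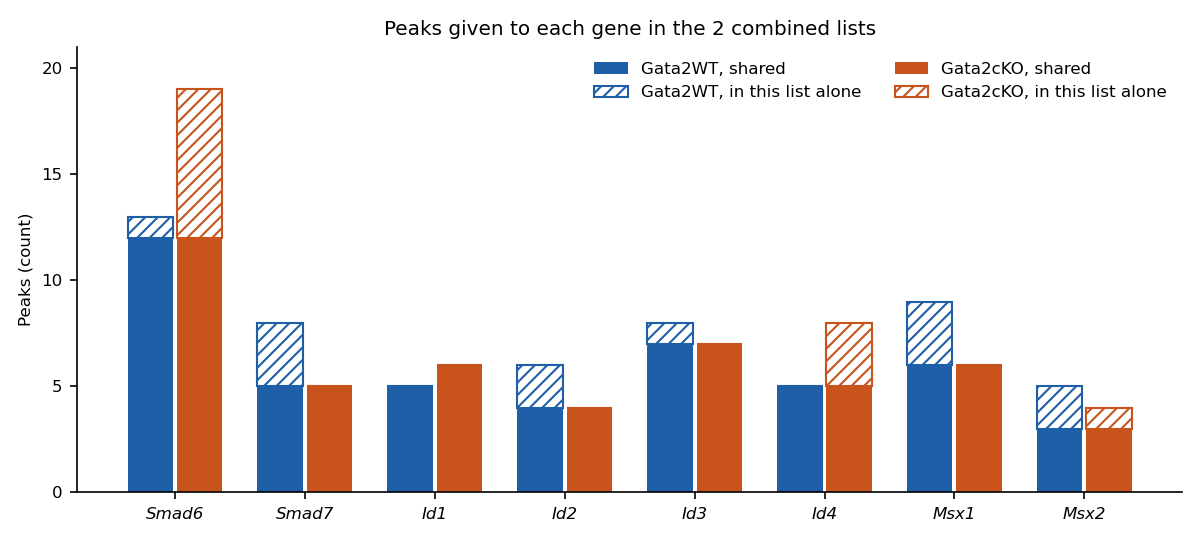
Number of peaks (y axis) given to each gene, with solid bars for shared peaks and hatched bars for peaks in 1 list alone, Gata2WT left and Gata2cKO right. Smad6 and Id4 have hatched Gata2cKO bars of 7 and 3, while Smad7 and Msx1 have hatched Gata2WT bars of 3 each.

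Over the 8 genes together the single-list shares were at or below those of all peaks. Of 59 Gata2WT peaks, 12 were WT-only (20.3%, 95% Wilson interval for counting error 12.0 to 32.3), where 28.5% of all Gata2WT peaks were. The cKO-only share was 11 of 59 (18.6%, 10.7 to 30.4), against 19.7% over the whole Gata2cKO list. With lists of equal length the shares were 16.7% and 22.0%, against 23.1% and 22.8% of all peaks. The 8 genes were uneven, though. Smad6 and Id4 held 10 of the 11 cKO-only peaks and 1 of the 12 WT-only peaks, and the other 6 genes held 11 WT-only of 41 and 1 cKO-only of 32. The split was made from these same counts, so it is a description. More WT-only than cKO-only peaks were found at 5 of the 8 genes (32.5% of coding genes with a peak), more cKO-only at 2 (16.7%), and none of either at Id1. At Id2 and Id3 the counts became even with lists of equal length. The shares over coding genes were not matched for number of peaks, and genes with more peaks have more chances of an imbalance.

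**Figure D3:**
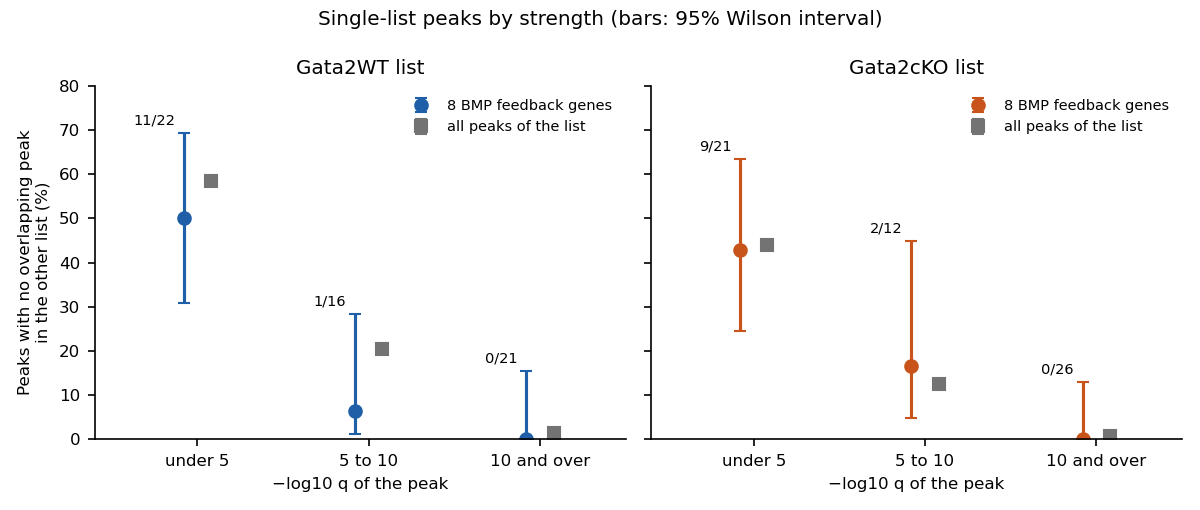
Share of peaks with no overlapping peak in the other list (y axis, %) by −log10 q (x axis), for the 8 genes (circles, with counts and 95% Wilson intervals) and for all peaks of the same list (squares). At a −log10 q of 10 and over, 0 of 21 Gata2WT peaks and 0 of 26 Gata2cKO peaks of the 8 genes were in 1 list alone.

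Strength set single-list peaks apart here as it did in the whole lists. Below a −log10 q of 5, 11 of 22 Gata2WT peaks of the 8 genes were WT-only (50%, against 58.5% of all) and 9 of 21 Gata2cKO peaks were cKO-only (42.9%, against 43.9%). From 5 to 10 it was 1 of 16 (6.25%, against 20.5%) and 2 of 12 (16.7%, against 12.5%). From 10 up it was 0 of 21 and 0 of 26, where 1.299% and 0.802% of all peaks were in 1 list alone. Away from gene ends, 12 of 48 Gata2WT peaks (25.0%, against 37.2%) and 11 of 47 Gata2cKO peaks (23.4%, against 26.8%) were in 1 list alone. The 11 cKO-only peaks were all on a local background under 10 fragments, while 4 of the 12 WT-only peaks, at Smad7, Id2 and Msx1, stood on more than 10. Of the cKO-only peaks, 8 lay over 20 kb from the gene, 5 of them at Smad6, and of the WT-only peaks 4 did. Under a distance limit of 20 kb, 3 of 39 Gata2cKO peaks were cKO-only and 8 of 43 Gata2WT peaks were WT-only. Shares over all peaks at these distances are not given, so nothing particular to the 8 genes is read from them. In the 47 shared Gata2WT peaks the summits of both lists were a median of 68 bp apart. They were over 250 bp apart in 3, at Id1, Id3 and Id4 (6.38%, against 8.82% of all shared Gata2WT peaks).

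**Figure D4:**
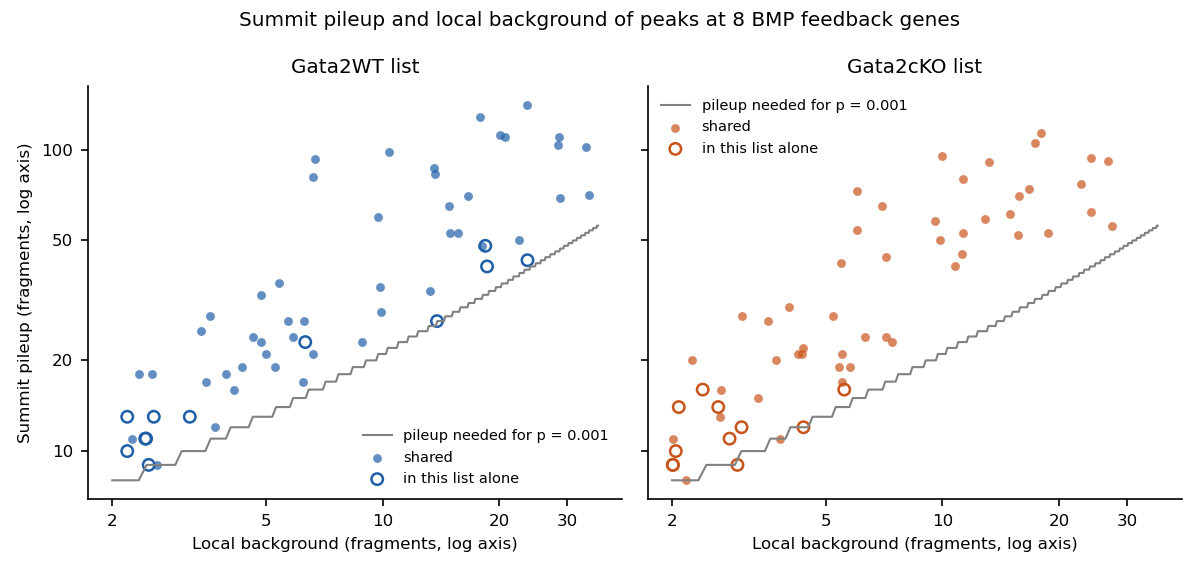
Summit pileup (y axis, fragments, log scale) against local background (x axis, fragments, log scale) of each peak at the 8 genes, with filled marks for shared and open marks for single-list peaks, and a line at the pileup needed to reach the authors' threshold. Of the open marks, 8 of 11 in Gata2cKO and 3 of 12 in Gata2WT lie at most 2 fragments above the line. Background of the open marks reaches 5.58 in Gata2cKO and 23.7 in Gata2WT. The matching shares over all single-list peaks are not given.

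The rest of the BMP pathway, 39 genes from ligands to E proteins, had gene-end peaks in both lists at 36 genes, where 62.8% of coding genes did, and in neither at 3. WT-only peaks made up 57 of 174 (32.8%, against 28.5% over all peaks) and cKO-only peaks 32 of 149 (21.5%, against 19.7%), both near the share of the whole list. More WT-only than cKO-only peaks were found at 17 of the 39, and more cKO-only at 5, where 32.5% and 16.7% of coding genes with a peak did so. Those shares were not matched for number of peaks here either. The ligands had 11 WT-only of 30 peaks and 3 cKO-only of 22. Among them Bmp7 had 5 and 0, and Bmp4, which had no gene-end peak in either list, 5 and 1. The receptors were even, with 13 of 38 and 13 of 39. Acvr2a, a type II receptor, counted 0 WT-only against 2 cKO-only peaks, and Acvrl1, a type I receptor known from endothelium, 2 against 0. Of the activating SMADs, Smad1 had 3 WT-only and 1 cKO-only peak, and Smad5, Smad9 and Smad4 a single WT-only peak each in the longer of the lists. The inhibitors inside the cell had 6 of 24 and 5 of 23, with Smurf2, a ubiquitin ligase that SMAD7 brings to the receptors, at 1 and 3. The inhibitors outside the cell had 6 of 24 and 3 of 21. Other targets of the pathway had 2 of 13 and 2 of 12. The E proteins, which ID proteins bind, had 13 of 27 and 5 of 19, with 7 and 1 at Tcf12 and 2 and 0 at Tcf3.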

How the data were processed

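Per the submitters' processing notes, peaks came from MACS2 2.2.6 on GRCm38 (mm10), with Bowtie2 2.3.5.1, Picard 2.23.0, Trimmomatic 0.39, bedtools 2.29.2 and SAMtools also named. Their parameters, the Tn5 shift and the way the 2 replicates were combined were not given in these sources. The authors deposited 1 narrow peak list per genotype. Its deposited fold enrichment is the ratio of summit pileup to local background, which the authors made with MACS2, per the submitters' processing notes. For solving, 1 was taken to be added to both pileup and background before the ratio. Its deposited −log10 p and −log10 q refer to that pileup, and its deposited score is 10 times the −log10 p, cut to a whole number. The lowest −log10 p was 3.00 in both lists. None of these values were scaled between lists. The number of reads per library was not analysed here.

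Rows with the same interval were collapsed to the highest summit, from 58367 rows to 49394 peaks in Gata2WT and from 52241 to 44139 in Gata2cKO, on autosomes and X. Pileup and background were solved from fold enrichment and −log10 p. Whole numbers came out, within 0.001 in −log10 p, for 99.996% and 99.9955% of peaks. Genes came from RefSeq GRCm38.p6. The overlap, distance and solving steps were tested on simulated data. No test between genotypes fits 1 combined list each. Named genes were the 8 members, pathway genes whose WT-only and cKO-only counts differ by 2 or more (at most 8), and 3 genes closest in summed difference of counts to each of the 2 members with the largest imbalance, Smad6 and Smad7 (Smad7, Id4 and Msx1 tie, and list order decided). The members and lists were chosen with earlier results of these data known. Python 3.11.15, pandas 2.3.3 and scipy 1.17.1 were used. The 10 alternatives covered overlap rule, strength, list length, gene window, distance, gene set and collapsing.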

Additional observations from a re-analysis of the deposited data

How the results depend on the processing

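The WT-only and cKO-only shares of the 8 genes together, and each gene's counts and balance, were recomputed under 10 alternatives. Shares by strength or place and the pathway and marker counts were not. The WT-only share of 20.3% moved outside its counting interval once, to 2.70% once a −log10 q of 5 or more was required of the counted peaks (7.61% over all peaks). The cKO-only share of 18.6% became 5.26% there (4.74% over all peaks). With that limit in both lists the shares were 13.5% and 13.2%, against 20.2% and 14.51% over all peaks. The cKO-only share was 9.62% under a distance limit of 50 kb, 7.69% under one of 20 kb and 6.67% when the nearest end of any gene decided, which left 31 Gata2WT and 30 Gata2cKO peaks. Fewer peaks were counted in each of these, and the cause was not tested further. Shares over all Gata2cKO peaks under these distance and gene rules are not given, so the fall cannot be read as particular to the 8 genes. In the whole Gata2cKO list, 4.51% of gene-end peaks were cKO-only, against 26.8% away from gene ends. The balance of Msx2, −1 (cKO-only minus WT-only), became 1 with a −log10 q of at least 5 on the side counted and 1 with that limit in both lists, and ran from −2 to 1. Over all settings the balance ran from 0 to 7 at Smad6, 0 to 3 at Id4, −3 to −1 at Smad7, −3 to 0 at Msx1, −2 to 0 at Id2, −1 to 0 at Id3 and 0 to 1 at Id1. Of 240 recomputed counts and balances of single genes, 170 stayed within 1.5 times, 68 moved farther and 2 changed sign. The 170 include counts of 0 that stayed 0, as for the cKO-only peaks of Msx1, so they are no measure of stability. No paired analysis was possible because each genotype's replicates are combined in 1 list, and for the same reason no replicate could be left out. The fewest fragments in any listed summit were 8 in each list, so weaker sites are not seen.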
